A study of Cricetiscus sungorus with 41 samples.

Results

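The genes described here are 9 genes of fatty acid oxidation, CPT1A, CPT2, ACADVL, ACADL, ACADM, HADHA, HADHB, PPARA and UCP2, as measured in the blood of Djungarian hamsters. They were chosen by name, as the rows of the count table with these human gene symbols, and all 9 were found among its 20220 symbols. RNA was sequenced from blood cell pellets of 41 wild-type animals, and each library is a separate animal. Hypothermic animals (HT) were in daily torpor on the day of sampling, and normothermic animals (NT) were not. There were 5 HT and 6 NT animals at zeitgeber time 1 (ZT01, counted in hours from lights on), 5 and 4 at ZT04, 4 and 4 at ZT07, and 4 and 4 at ZT16. A further 5 animals are labelled Control only, with neither a sampling time nor a sex. The study's methods describe the ZT04 animals, the HT animals at their torpor nadir, as adult hamsters of an outbred colony under a winter-like short photoperiod with free access to food, each of which used spontaneous daily torpor. The body temperature of the animals at the other time points is not given in the sources used here. Sex went with the group at ZT16 (4 HT females, 4 NT males) and in part at ZT04 (2 HT males and 3 HT females, 4 NT males). At ZT01 there were 2 males and 3 females in HT and 4 males and 2 females in NT, and at ZT07 1 male and 3 females in each.

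In mitochondrial beta-oxidation, fatty acids bound to coenzyme A enter the mitochondrion through the carnitine shuttle and are then shortened from the carboxyl end, cycle after cycle, to acetyl-CoA. CPT1A and CPT2 work on either side of the inner membrane in that shuttle, the acyl-CoA dehydrogenases ACADVL, ACADL and ACADM begin each cycle on very long, long and medium chains, and HADHA and HADHB form the trifunctional protein that completes it. PPARA is a nuclear receptor that switches on many of these genes when fatty acids are abundant, chiefly in liver, heart and kidney, and UCP2 is a carrier of the mitochondrial inner membrane. Fasting mammals and mammals in torpor are known to draw on fat as a fuel. Mature red cells have no mitochondria, so in blood the pathway belongs to leukocytes, platelets and immature red cells.

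Haemoglobin genes took 73.7% to 93.8% of 50153600 to 71662267 counts, which left 3291472 to 14562786 counts for all other genes. Levels are given as CPM, the count relative to the size of the library, with library sizes scaled by the trimmed mean of M values (TMM-scaled CPM, called CPM from here). Contig lengths are not in the table, so levels are compared between animals and not between genes. Differences are log2 values with their standard error from edgeR's quasi-likelihood test, and a gene was called at an adjusted p under 0.05 over all genes tested. In bulk blood, fewer cells of a type and less RNA per cell cannot be told apart. Markers of leukocytes, platelets and red cell precursors were present in these pellets (summed over 10 markers, erythroid markers had 3328 to 28690 CPM and NK and cytotoxic cell markers 39.4 to 212). The study drew blood by heart puncture. Of 13 heart muscle markers MYL7, NPPA and PLN were at 0 in all 41 animals. The list had a summed level of 2.99 to 33.8 CPM, with up to 27.4 CPM of TNNT2. The summed level of 8 skeletal muscle markers reached 30.7, 1.51, 15.9 and 19.9 CPM in HT animals from ZT01 to ZT16 (group medians 1.29, 1.02, 1.26 and 0.872). It reached 1.35 CPM at most in NT animals and 2.05 CPM in Control animals. The part of muscle RNA in the levels of the members was not tested. The Y-linked gene UTY had 8 counts in the male HT animal of ZT07 (replicate 1) and 52 in 1 labelled female (replicate 2), against their labels, so ZT07 results are also given without these animals.

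Between HT and NT animals, 1 of the 8 members that could be tested passed the test at 1 time point, UCP2 at ZT07, where it was 2.21 times lower in HT animals. ACADL was 5.87 times lower in Control than in NT animals, and ACADM differed among the time points of HT animals. CPT1A, CPT2, ACADVL, HADHA and HADHB passed none of the 8 comparisons. PPARA had too few counts for the comparisons of HT with NT at single time points and of Control with NT. At torpor nadir (ZT04) none of the 8 members passed the test, and 7 of the 8 had a difference below 0, with a median of -0.25 against -0.01 over all 10505 genes. There edgeR called 0.447% of all genes, and by edgeR none of the 8 members had an unadjusted p under 0.05. DESeq2 likewise called 0 of the 8 members.

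**Figure D1:**
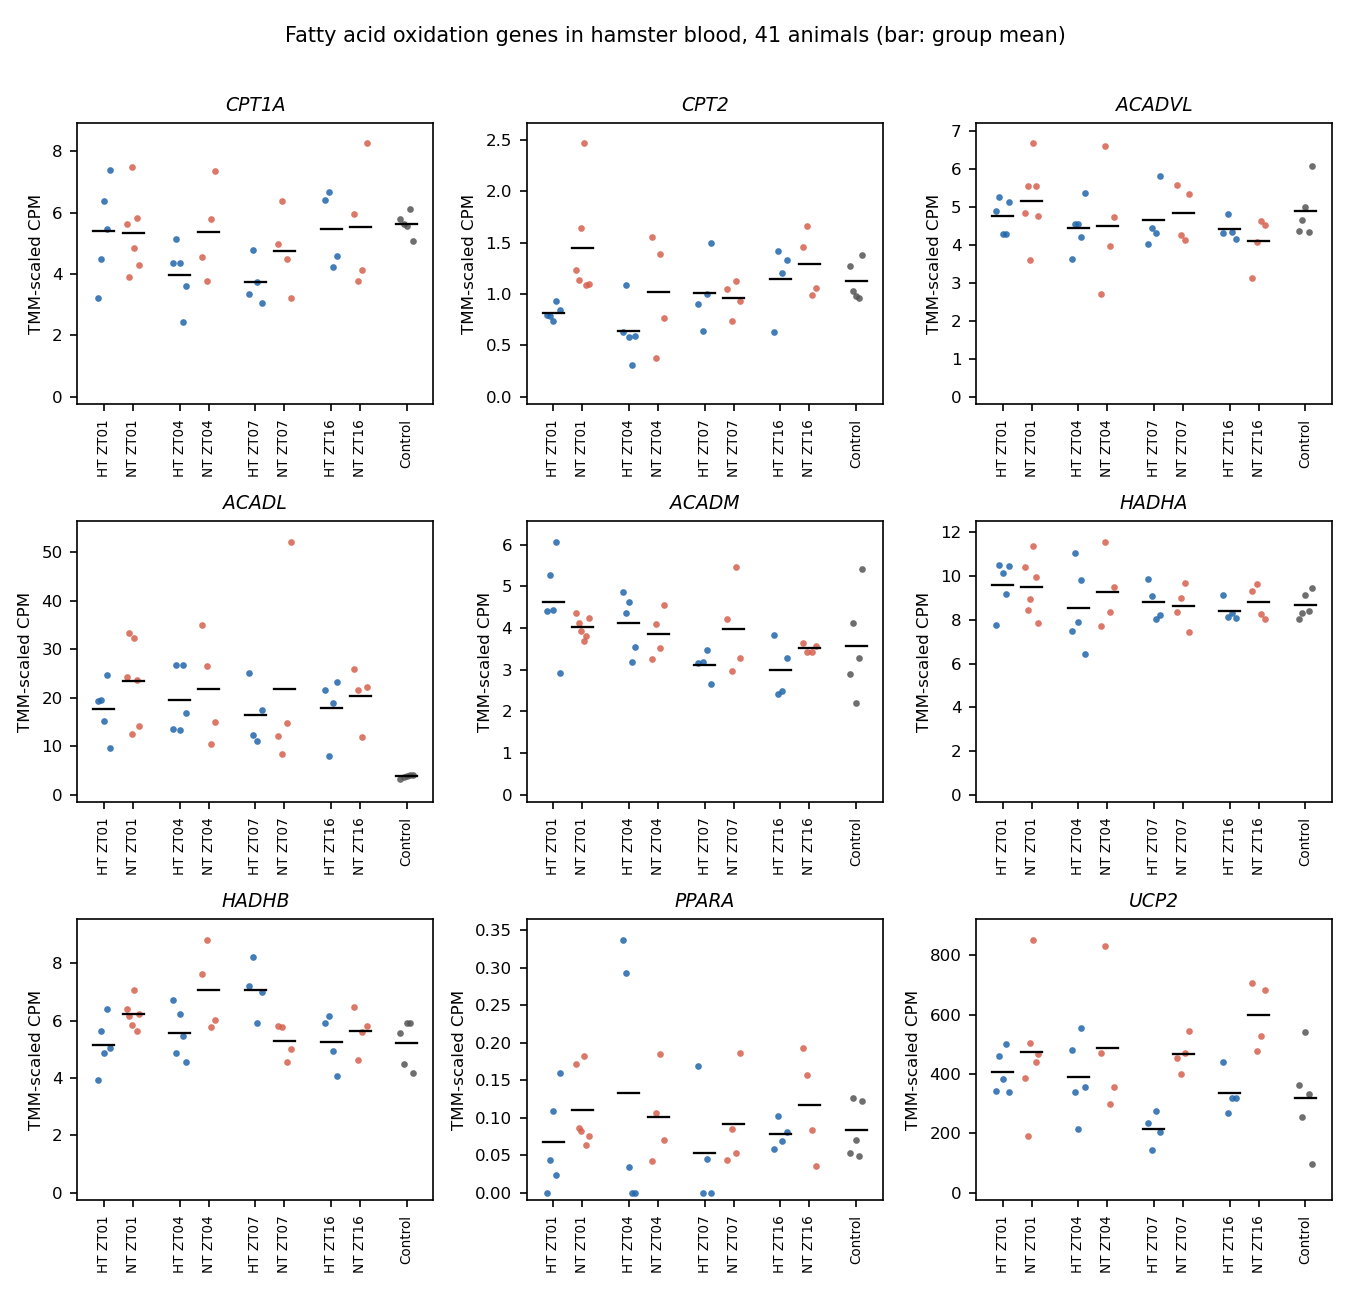
TMM-scaled CPM (linear axis) of the 9 genes in each of the 41 animals, by group. Each point is an animal, blue for HT, red for NT and grey for Control, and black bars are group means. UCP2 in HT animals at ZT07 (144 to 274 CPM) lay below the NT animals of that time point (400 to 546 CPM), and ACADL in Control animals (3.31 to 4.05 CPM) lay below every other animal.

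**Figure D2:**
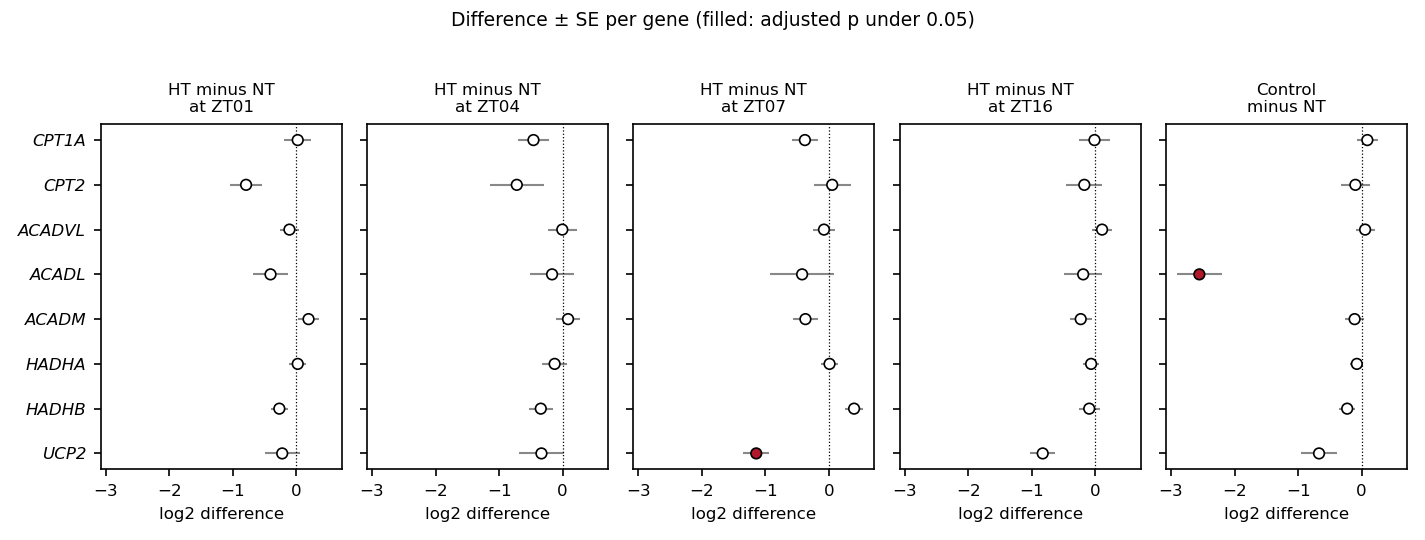
Log2 differences with standard errors of the 8 tested members in the 4 comparisons of HT with NT animals and in that of Control with NT animals. Filled points passed the test: UCP2 at ZT07 (-1.15) and ACADL in Control animals (-2.55).

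The gate of the pathway was measured with CPT1A and CPT2. CPT1A encodes the liver-type carnitine palmitoyltransferase of the outer mitochondrial membrane, which sets the pace of fatty acid entry. Its level ran from 2.44 to 8.25 CPM over all animals. The lowest group mean was 3.73 ± 0.748 CPM in HT animals at ZT07 (SD, n = 4) and the highest was 5.64 ± 0.374 CPM in Control animals (SD, n = 5). At ZT04, HT animals had 4.34, 5.12, 4.36, 2.44 and 3.59 CPM and NT animals 4.56, 3.77, 5.79 and 7.36 CPM. The groups overlapped, and the difference of -0.46 ± 0.24 did not pass the test (adjusted p = 0.399). At ZT07 it was -0.38 ± 0.21 (adjusted p = 0.265), at ZT01 0.02 ± 0.21 and at ZT16 -0.01 ± 0.24.

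CPT2, the carnitine palmitoyltransferase of the inner membrane, which hands the chain back to coenzyme A, was thinly counted, with 7 to 283 counts per animal. At ZT01, HT animals had 0.798, 0.787, 0.737, 0.927 and 0.844 CPM. The 6 NT animals ran from 1.09 CPM over a median of 1.19 to 2.47 CPM. Every HT animal was below every NT animal, as were 0.438% of all genes at that time point. The difference of -0.79 ± 0.25 had an unadjusted p of 0.00557 and did not pass over all genes (adjusted p = 0.585, and 0.24 to 0.627 under other settings), where edgeR called 0 of 10509 genes and DESeq2 12, with 808 at an unadjusted p under 0.05. At ZT04 CPT2 was lower again in the mean of HT animals (0.639 ± 0.278 against 1.02 ± 0.550 CPM, difference -0.72 ± 0.43, adjusted p = 0.464), with overlapping groups. Its lowest NT value there, 0.372 CPM, rested on 7 counts in replicate 2, the library with the fewest counts outside haemoglobin. At ZT07 and ZT16 the differences were 0.05 ± 0.29 and -0.17 ± 0.29.

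Among the dehydrogenases, ACADVL, which acts on very long chains at the inner membrane, had group means from 4.09 to 5.16 CPM. Its differences between HT and NT animals lay between -0.11 and 0.11 at the 4 time points, and it passed no test. In the order of its 9 group means, no neighbours differed by more than the larger of their SDs.

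ACADM encodes the medium-chain dehydrogenase and is a classical PPARA target in liver. In HT animals it had 4.42, 5.27, 4.44, 6.08 and 2.93 CPM at ZT01 and 4.87, 4.36, 4.64, 3.18 and 3.54 CPM at ZT04. It had 3.17, 3.18, 3.48 and 2.65 CPM at ZT07 and 3.83, 2.41, 2.49 and 3.28 CPM at ZT16. The later time points lay lower, but replicate 5 of ZT01 and replicates 4 and 5 of ZT04 were within the range of the later animals. The test over the 4 time points passed (F = 6.18, adjusted p = 0.0234, fitted over the 36 animals of both conditions), where 10.8% of all genes did. The largest difference between time points was that of ZT16 from ZT01, -0.64 ± 0.18 (adjusted p = 0.14), and that of ZT07 from ZT01 was -0.58 ± 0.18 (adjusted p = 0.0515), so no single pair of time points passed. The adjusted p of the test over time points rose to 0.0623 with sex as a covariate and to 0.0514 with all 41 animals in the fit. It was 0.0516 without HT ZT01 replicate 2, 0.0634 without replicate 4, 0.0515 without HT ZT07 replicate 2, 0.0516 without replicate 4, 0.0762 without HT ZT16 replicate 2 and 0.0613 without replicate 3. In NT animals ACADM had group means of 3.51 to 4.03 CPM (adjusted p = 0.987 over time points), and whether the course differed between HT and NT animals was tested and not shown (adjusted p = 0.436). HT minus NT differences ran from -0.37 ± 0.20 at ZT07 to 0.19 ± 0.16 at ZT01.

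ACADL, the long-chain dehydrogenase, differed between the Control animals and all others. The 5 Control animals had 3.31, 3.70, 3.81, 3.99 and 4.05 CPM. The 18 NT animals ran from 8.33 CPM over a median of 21.9 to 52.2 CPM, and the 18 HT animals from 8.02 over 18.2 to 26.8 CPM. The Control animals did not overlap with either condition, and their spread was small beside that of the other groups (mean 3.77 ± 0.292 CPM, SD, n = 5, against 22.02 ± 11.2 CPM in NT animals, SD, n = 18). Control minus NT was -2.55 ± 0.35 (5.87 times lower, adjusted p = 8.75e-06). Of 11228 genes tested, 2.02% were called, 1.98% lower and 0.0445% higher in Control, and in 1.62% every Control animal lay below every NT animal. Under other settings the difference ran from -2.56 to -2.23, the latter against the 18 HT animals, and it was called in each. Sampling time and sex are not given for the Control animals, so these cannot be told apart from the group. Between HT and NT animals ACADL differed by -0.41 ± 0.27, -0.17 ± 0.34, -0.42 ± 0.50 and -0.19 ± 0.30 from ZT01 to ZT16, with an adjusted p of at least 0.624. At ZT07 NT replicate 4 stood apart with 52.2 CPM, where the other 3 had 8.33 to 14.8 CPM, and the difference without it was 0.47.

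The genes most like ACADL were not its neighbours in the pathway. Over the 41 animals, among 9846 genes, it went most closely with LAP3, a leucine aminopeptidase (Pearson r = 0.994 of log2 CPM), FBH1, a DNA helicase (0.990), and LONP2, a peroxisomal protease (0.989), and 174 genes had an r over 0.9. These values were computed over the same libraries, group differences included. Over the 36 HT and NT animals alone, 156 genes had an r over 0.9 to ACADL, and 155 of these were lower in Control animals, out of 222 genes lower there in all (median difference of the 156, -3.43). They include genes that mammals are known to use chiefly in liver or gut, chosen here after their values were seen. CPS1, the mitochondrial carbamoyl phosphate synthetase of the urea cycle, had 18.3 ± 11.6 CPM in NT animals (SD, n = 18), and HAO1, the glycolate oxidase of liver peroxisomes, had 27.6 ± 18.6 CPM. LCT, the lactase of the small intestine, had 19.5 ± 12.2 CPM. In Control animals these had 0.0242 ± 0.0278, 0.0940 ± 0.0860 and 0.170 ± 0.0545 CPM (SD, n = 5). Of the defining liver markers, TTR was at 0 in all 41 animals and ALB reached 0.219 CPM at most. The 7 liver markers together reached 0.497 CPM. Rows this near 0 could not show a difference between groups. The haemoglobin symbols HBA1 and HBM were also at 0 in all 41 animals, so a symbol at 0 does not show that an RNA was absent. The source of these counts was not tested. The symbols were given to contigs by their best human protein match, several contigs can share a symbol, and which contigs carry the counts of these rows was not tested.

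**Figure D3:**
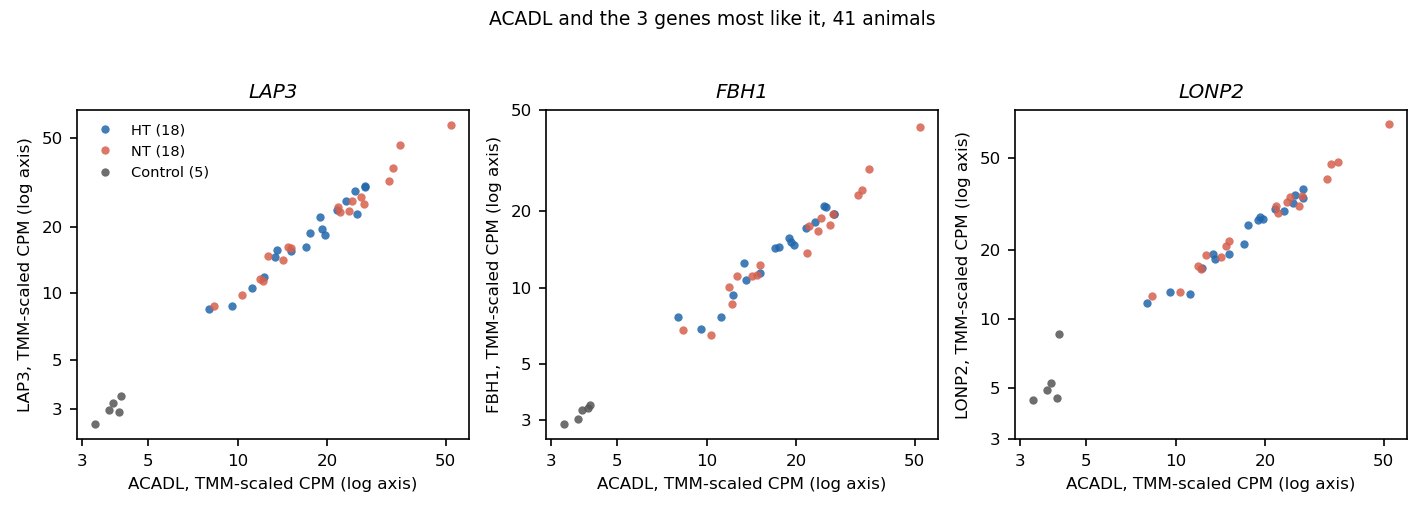
ACADL (horizontal) against LAP3, FBH1 and LONP2 (vertical), the genes most like it, as TMM-scaled CPM on log axes in 41 animals. Each point is an animal, and the 5 Control animals (grey) sit at 3.31 to 4.05 CPM of ACADL, apart from the 18 HT (blue) and 18 NT (red) animals.

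HADHA and HADHB encode the alpha and beta subunits of the trifunctional protein. HADHA, which carries the hydratase and the long-chain hydroxyacyl-CoA dehydrogenase, had group means of 8.42 to 9.62 CPM, and its HT minus NT differences lay between -0.13 and 0.02. HADHB, which carries the thiolase, varied more. At ZT07 its level was 7.19, 8.21, 5.92 and 7.01 CPM in HT animals and 5.83, 5.77, 4.56 and 5.01 CPM in NT animals. Every HT animal was above every NT animal, as in 10.9% of all genes at that time point, and the difference of 0.39 ± 0.15 did not pass the test (unadjusted p = 0.02, adjusted p = 0.107). At ZT01 and ZT04 the difference had the other sign, -0.27 ± 0.14 and -0.34 ± 0.19, and at ZT16 it was -0.10 ± 0.16. The test of whether it varied among the time points gave F = 4.48 with an unadjusted p of 0.00926 and did not pass over all genes (adjusted p = 0.173), where 1.13% of genes did. Over the 41 animals, with group means removed, the levels of both subunits had a Pearson r of 0.173 (permutation p = 0.35, 0.167 without the 2 farthest animals) and a Spearman rho of 0.14 (permutation p = 0.431).

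PPARA had 240 counts in all 41 libraries together, from 0 to 25 per animal. It was at 0 in 5 libraries, all of HT animals (ZT01 replicate 1, ZT04 replicates 4 and 5, and ZT07 replicates 2 and 4), where a count of 0 allows up to 0.0307 to 0.0851 CPM (3 counts, for counting error only). This limit takes counts as independent of each other, and it would be higher if they came in pairs. Of the counts between 1 and 49 in the table, 67.5% were even numbers. In NT animals the level ran from 0.0353 to 0.194 CPM. Its highest values were 0.338 and 0.293 CPM, in HT ZT04 replicates 1 and 2, so that group held the 2 highest animals as well as 2 animals at 0. In the fit of the 36 animals no variation of the HT minus NT difference with time point (adjusted p = 0.949) and none among the time points of HT animals (adjusted p = 0.748) was detectable at this depth.

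UCP2 encodes a carrier of the inner mitochondrial membrane that is well known from leukocytes and, in mice, from red cell precursors. It was the member with the most counts, 12415 to 38829 per animal. At ZT07, HT animals had 235, 144, 274 and 205 CPM and NT animals 455, 400, 471 and 546 CPM. All HT animals were below all NT animals, as in 8.17% of genes, with means of 214.5 ± 54.8 and 468 ± 60.5 CPM (SD, n = 4 each). The difference was -1.15 ± 0.20 (2.21 times lower, adjusted p = 0.00952), at a time point where 10.4% of all 10787 genes were called, 4.65% as lower. By p it ranked 145 among these genes. It was called in each fit that left out 1 animal (-1.29 to -0.98). Without both HT ZT07 replicates 1 and 2 it was -0.98 ± 0.21 and no longer called (adjusted p = 0.0894), in a fit where 37 genes were called in all. The difference was also seen on other scales. In CPM without the TMM scaling UCP2 had 263 ± 65.7 in HT and 522 ± 45.3 in NT animals, and in CPM of the haemoglobin counts alone it had 300.1 ± 74.6 and 594 ± 61.8. On each of the 3 scales the groups did not overlap (exact permutation test, 2-sided, p = 0.0286, the smallest that 4 against 4 animals allow). The haemoglobin share was 87.7% ± 1.07 in HT and 88.0% ± 1.56 in NT animals (exact permutation test, p = 0.686).

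**Figure D4:**
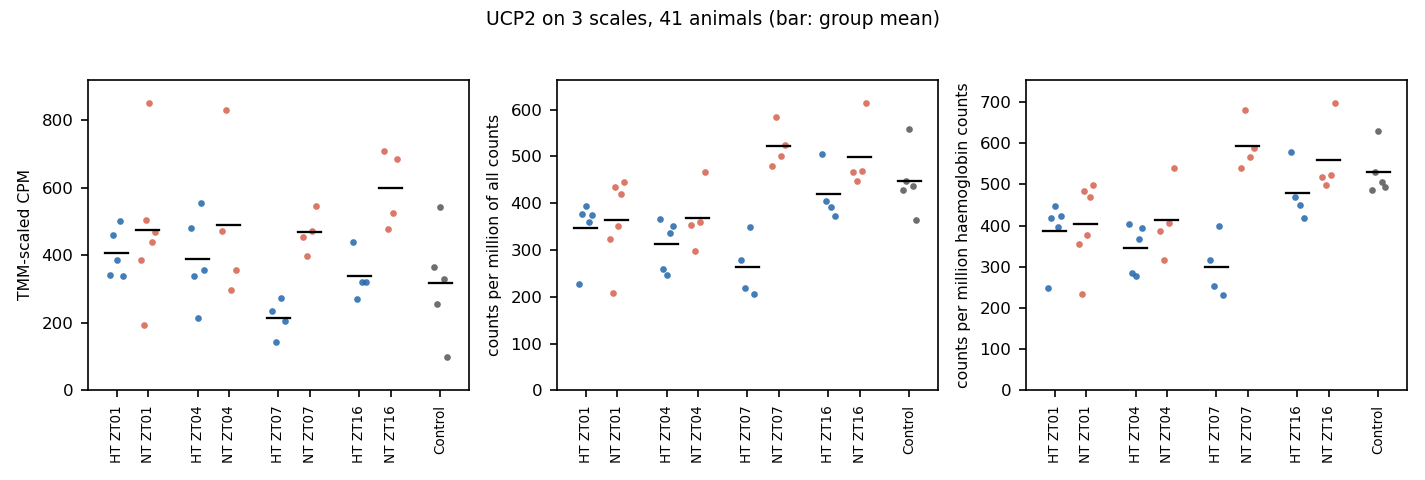
UCP2 in each of the 41 animals by group, as TMM-scaled CPM, as CPM of all counts without that scaling and as CPM relative to haemoglobin counts (linear axes, bars are group means). At ZT07 the HT animals (blue) lay below the NT animals (red) on all 3 scales, and at ZT16 they did so on the TMM scale alone.

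Some cell type markers were also called at ZT07, where 10.4% of all genes were. The erythroid markers had differences below 0 in 9 of 10 genes with a median of -0.35, against -0.04 over all genes, and 1 was called, the red cell anion exchanger SLC4A1 (-1.06 ± 0.21, adjusted p = 0.0135). Their summed level overlapped between HT (7505 to 14080 CPM) and NT animals (9511 to 13600 CPM). Of 10 NK and cytotoxic cell markers KLRD1, NCR1 and TBX21 were called lower, and of 11 tested neutrophil markers LTF and MMP9 were called higher. The summed NK and cytotoxic cell markers overlapped between HT (39.39 to 72.55 CPM) and NT animals (40.66 to 110.2 CPM). The B cell marker BANK1 (-1.12 ± 0.24) and the monocyte marker CX3CR1 (-0.90 ± 0.18) were called lower, while 7 of 10 B cell and 6 of 8 tested monocyte markers had differences above 0. Platelet markers were below 0 in 9 of 10 genes (median -0.37, none called by edgeR, 2 at an unadjusted p under 0.05), with summed levels of 349 to 612 CPM in HT and 448 to 797 CPM in NT animals. T cell markers were below 0 in 9 of 12 genes (median -0.16, none called, 4 at an unadjusted p under 0.05). The summed neutrophil markers had 17.1 to 37.4 CPM in HT and 13.8 to 21.1 CPM in NT animals. The part of these cells in the UCP2 difference was not tested.

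At ZT16, UCP2 had 440, 269, 320 and 320 CPM in HT animals and 708, 479, 526.4 and 685 CPM in NT animals. The groups did not overlap, as in 1.78% of genes at that time point, and the difference of -0.83 ± 0.20 did not pass the test (adjusted p = 0.472, and 0.00262 to 1 under other settings, where 0.0187% of genes were called). With DESeq2 it passed (adjusted p = 0.00262), in a fit that called 100 genes. On the other scales the groups overlapped, with 419 ± 59.1 against 500 ± 77.5 CPM without the TMM scaling (exact permutation test, p = 0.114) and 479 ± 68.9 against 559 ± 93.6 CPM of the haemoglobin counts (exact permutation test, p = 0.257). The HT animals of ZT16 were all labelled female and the NT animals all male, so group and sex cannot be told apart there. Over the 36 animals, with group in the fit, UCP2 differed between males and females by -0.15 ± 0.18 (adjusted p = 0.999). At ZT01 and ZT04 UCP2 differed by -0.22 ± 0.28 and -0.33 ± 0.35. That the difference varied with time point was not shown (adjusted p = 0.436), nor was a change over the time points of HT animals (adjusted p = 0.112) or of NT animals (adjusted p = 0.987). In the order of the 9 group means HT ZT07 was lowest, followed by Control and by HT ZT16, ZT04 and ZT01, and then NT ZT07, ZT01, ZT04 and ZT16. No neighbours in that order differed by more than the larger of their SDs. Control animals had 98.5 to 543 CPM, with the lowest value in replicate 5, the library with the smallest haemoglobin share, and their difference from NT animals (-0.67 ± 0.29) did not pass (adjusted p = 0.442). The genes most like UCP2 over the 41 animals were ZER1 (Pearson r = 0.913), AP2M1 (0.907) and NCOA4 (0.902), and 75 genes had an r over 0.8.

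The study's cut-offs were a fold of 1.25 or more with an unadjusted p no higher than 0.05. They were applied here to edgeR's values, where the study used DESeq2, and which members would be past them by DESeq2 was not tested. By edgeR, CPT2 was lower at ZT01, and no member was past them at ZT04. HADHB was higher and UCP2 lower at ZT07, and UCP2 was lower at ZT16. ACADL and UCP2 were lower in Control than in NT animals. Of all genes, 3.59% were lower past these cut-offs at ZT01, 7.62% higher and 7.55% lower at ZT04, 13.8% higher and 13.4% lower at ZT07, 4.56% lower at ZT16 and 6.3% lower in Control animals.

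Of the 36 pairs of members, none had an adjusted p under 0.05 over the 41 animals once group means were removed (permutation test, 100000 permutations within groups), and 2 had an unadjusted p under 0.05. CPT1A with ACADL had a Pearson r of -0.497 (permutation p = 0.00504, adjusted p = 0.181, -0.491 without the 2 farthest animals) and a Spearman rho of -0.479 (permutation p = 0.0062, adjusted p = 0.223). HADHB with UCP2 had a Pearson r of 0.419 (permutation p = 0.0111, adjusted p = 0.2, 0.432 without the 2 farthest) and a Spearman rho of 0.432 (permutation p = 0.0141, adjusted p = 0.254). PPARA had too few counts for this measure of likeness. Of the other 8 members, ACADL and UCP2 alone had genes with an r over 0.8. The closest genes were MDN1, EXD2 and IRGM for CPT1A (0.658, 0.639 and 0.639), KCTD5, FCRLA and SCOC for CPT2 (0.767, 0.732 and 0.675), and ITGAD, KLF4 and SLC2A6 for ACADM (0.736, 0.692 and 0.687). For ACADVL they were GMFG, PIH1D1 and CORO1A (0.763, 0.758 and 0.710), for HADHA DNAJC1, EIF5B and CD82 (0.670, 0.655 and 0.647), and for HADHB OCIAD1, UQCRC2, a subunit of respiratory complex III, and ARF4 (0.688, 0.638 and 0.637).

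Around the members, 170 further genes of fatty acid uptake, oxidation, control, storage and synthesis were listed, of which 160 had counts. At ZT07, 10 of 134 tested were higher and 11 lower in HT animals (15.7% called, against 10.4% of all genes, 5.73% as higher and 4.65% as lower), with a median difference of -0.14 against -0.04 over all genes. At ZT01, ZT04 and ZT16, 0 of 130, 133 and 132 were called by edgeR, with 8, 17 and 9 at an unadjusted p under 0.05 (as had 7.69%, 15.2% and 7.18% of all genes) and 0, 7 and 2 called by DESeq2. The count at ZT07 was 9 without HT replicate 2, 12 without HT replicate 4, 13 when either NT replicate 1 or NT replicate 3 was left out, and 0 without HT replicates 1 and 2 together.

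**Figure D5:**
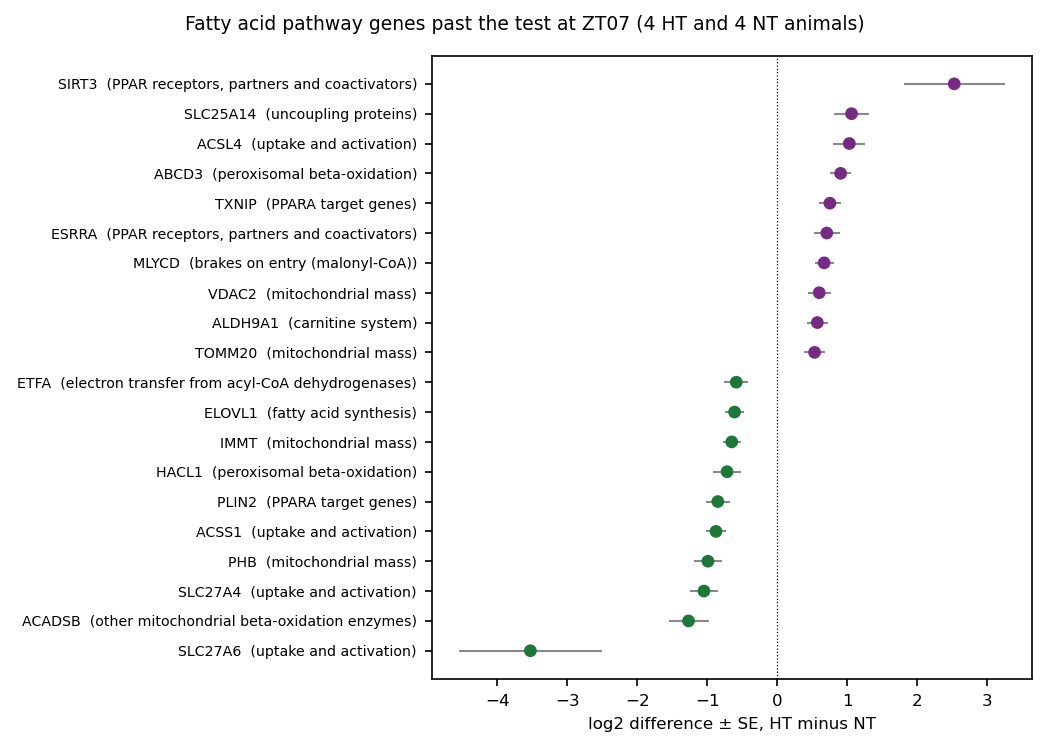
Log2 differences with standard errors, HT minus NT at ZT07, of 20 listed pathway genes that passed the test, with the list each belongs to (its first list where it is in more than 1). Genes higher in HT animals are in purple and genes lower in green, from SIRT3 (2.53) to SLC27A6 (-3.53).

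Fatty acid uptake and activation had 3 of 14 tested genes lower and 1 higher at ZT07, where 4.65% of all genes were called lower and 5.73% higher. ACSS1, the mitochondrial acetyl-CoA synthetase, had 6.37 ± 0.841 CPM in HT and 11.5 ± 0.828 CPM in NT animals (SD, n = 4 each), a difference of -0.88 ± 0.15 (adjusted p = 0.00778). SLC27A4, a fatty acid transport protein, was lower (-1.05 ± 0.20, adjusted p = 0.012), and ACSL4, an acyl-CoA synthetase that prefers arachidonate, was higher (1.03 ± 0.23, adjusted p = 0.0204). SLC27A6 was lower (-3.53 ± 1.02, adjusted p = 0.0491) with overlapping groups (0.0904 ± 0.103 against 1.04 ± 1.30 CPM). Of the carnitine system, ALDH9A1, an enzyme of carnitine synthesis, was higher (0.57 ± 0.15, adjusted p = 0.0345), 1 of 10 tested, against 10.4% of all genes called.

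Of 24 other mitochondrial beta-oxidation enzymes tested at ZT07, 21 had a difference below 0 (median -0.28), as had 53.1% of all genes. The same list had 20 of 24 below 0 at ZT01 (median -0.30), 19 at ZT04 (-0.10) and 15 at ZT16 (-0.05), against 51.7%, 50.7% and 48.2% of all genes. These genes are not separate observations. ACAD10, ACAD11, ECHDC2, GCDH, HIBADH, HSD17B10, IVD and MMUT of the list had an r over 0.9 to ACADL over the 36 HT and NT animals. ACADL itself turned from -0.42 to 0.47 at ZT07 without NT replicate 4. How many of the list were below 0 without that animal was not tested. At ZT07 1 of the 24 was called, against 10.4% of all genes. It was ACADSB, the dehydrogenase of short branched chains, at 0.665 ± 0.245 against 1.59 ± 0.335 CPM (-1.27 ± 0.29, adjusted p = 0.0204). ETFA, a subunit of the flavoprotein that takes up electrons from the acyl-CoA dehydrogenases, was lower (-0.59 ± 0.17, adjusted p = 0.0491). Peroxisomal genes split. ABCD3, a transporter of the peroxisomal membrane, was higher at 6.76 ± 0.813 against 3.55 ± 0.497 CPM (0.90 ± 0.15, adjusted p = 0.00813). HACL1, a lyase of alpha-oxidation, was lower (-0.72 ± 0.20, adjusted p = 0.0413).

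Of 20 tested receptors, partners and coactivators of the PPAR group, 2 were called at ZT07, a share near the 10.4% of all genes. The nuclear receptor ESRRA was higher (0.71 ± 0.19, adjusted p = 0.0363), and the mitochondrial deacetylase SIRT3 was higher at a very low level (0.330 ± 0.105 against 0.0582 ± 0.0488 CPM, 2.53 ± 0.72, adjusted p = 0.0472). Of 11 tested PPARA target genes TXNIP, a regulator of glucose uptake and redox state, was higher at 74.4 ± 14.96 against 43.4 ± 3.31 CPM (0.75 ± 0.16, adjusted p = 0.0157). PLIN2, a coat protein of lipid droplets, was lower (-0.85 ± 0.17, adjusted p = 0.013). MLYCD, which removes the malonyl-CoA that blocks CPT1A, was higher (0.67 ± 0.14, adjusted p = 0.0149), and ELOVL1, which elongates fatty acids, was lower (-0.61 ± 0.14, adjusted p = 0.0205). Genes that stand for mitochondrial mass also split. TOMM20 (0.53 ± 0.15) and VDAC2 (0.60 ± 0.16) of the outer membrane were higher, and PHB (-0.99 ± 0.20) and IMMT (-0.65 ± 0.13) of the inner membrane were lower. SLC25A14, another carrier of the UCP family, was higher (1.06 ± 0.25, adjusted p = 0.0231), opposite to UCP2. Of these 21 genes 8 were called in all 8 fits that left out 1 animal, ABCD3, ACSS1, IMMT, MLYCD, PHB, PLIN2, SLC27A4 and TXNIP, and SIRT3 was called in none of them.

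At the other time points the pathway genes with the lowest p did not pass. At ZT04 these included TXNIP (0.77 ± 0.20, adjusted p = 0.0896) and MLYCD (0.82 ± 0.23, adjusted p = 0.126), with the signs they had at ZT07. At ZT01 they were TFAM, the mitochondrial transcription factor (-0.47 ± 0.17), SREBF2, the regulator of cholesterol synthesis (0.43 ± 0.16), and PHB (-0.48 ± 0.19), each with an adjusted p of 0.642. At ZT16 they were MLXIP (-1.04 ± 0.28), the monoglyceride lipase gene MGLL (-0.96 ± 0.27) and the carnitine acetyltransferase gene CRAT (-0.71 ± 0.22), with adjusted p from 0.502 to 0.527. The HT minus NT difference varied among time points in 3 of 140 genes (2.14%, against 1.13% of all genes), among them ACADSB (adjusted p = 0.0445) and TXNIP (adjusted p = 0.0498). With sex as a covariate, or with no filter on low counts, 0 of them were called, and leaving out animals in turn gave 0 to 3.

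Over the time points of HT animals 18 of 140 pathway genes passed (12.9%, against 10.8% of all genes). ACSS1, ABCD3, ACADSB, ACSL4, ALDH9A1, HACL1, IMMT, PHB, PLIN2, SLC25A14, TOMM20, TXNIP and VDAC2 were among those also called at ZT07, and these comparisons share the HT ZT07 animals. ACLY, the citrate lyase that feeds fatty acid synthesis, SREBF2, SLC25A27, a carrier of the UCP family, and the deacetylase SIRT1 passed over time points and not at ZT07. Over the time points of NT animals 0 of 140 passed by edgeR and by DESeq2, with 8 at an unadjusted p under 0.05 (5.66% of all genes).

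In Control against NT animals 14 of 136 pathway genes were called, all of them lower in Control (10.3%, against 2.02% of all genes). Of these 13 (92.9%) were among the 156 genes with an r over 0.9 to ACADL (8.33% of them), the exception being ACAA1, the peroxisomal thiolase (-0.87 ± 0.23, adjusted p = 0.041). The largest differences were those of ACSM5, a medium-chain acyl-CoA synthetase known from liver (0.0191 ± 0.0225 in Control against 14.3 ± 9.58 CPM in NT animals), and ECHDC2 (0.233 ± 0.135 against 6.69 ± 4.17 CPM). ACAD10, another acyl-CoA dehydrogenase, had 0.656 ± 0.172 against 15.3 ± 8.88 CPM, and ETFDH, which passes electrons from the flavoprotein to ubiquinone, had 0.604 ± 0.215 against 11.7 ± 7.03 CPM. AMACR, ACSS2, HIBADH and OXCT1, the enzyme that activates ketone bodies, had differences of -4.54 to -2.53, and IVD, ACAD11, MMUT and HSD17B10 of -2.27 to -1.59. GCDH had 8.58 ± 1.95 against 17.1 ± 5.98 CPM. Leaving out Control animals in turn, ACAA1 lost its call each time (adjusted p = 0.0575 to 0.177) and GCDH in 2 of 5 fits. CPT1A, CPT2, ACADM, ACADVL, HADHA and HADHB, by contrast, differed between Control and NT animals by -0.23 to 0.09, with adjusted p from 0.627 to 0.964.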

How the data were processed

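RNA from blood cell pellets of 41 Djungarian hamsters was sequenced in paired-end mode. Per the study's methods, the authors trimmed the reads, assembled contigs de novo from all samples, translated them and gave each the symbol of its best human protein match. They aligned the reads to the contigs with hisat2 and deposited 1 table of counts per gene symbol, with no normalization and no gene lengths. Several contigs can share a symbol, and 67.5% of the counts between 1 and 49 were even numbers. The methods were stated for the ZT04 animals. All columns were matched to animals by their labels (0 unmapped).

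The deposited counts were tested with edgeR 4.0.16 in R 4.3.3 (quasi-likelihood test, TMM scaling, filter on low counts with a minimum count of 10 and a total of 15, Benjamini-Hochberg adjustment over all genes tested, threshold 0.05). HT and NT animals were compared at each time point among those animals alone. Differences among time points were tested in 1 fit over both conditions (36 animals). The 5 Control animals were compared with the 18 NT animals. Log2 CPM for correlations used a prior count of 2, and the exact permutation tests were 2-sided. No 2 of the 41 libraries agreed within sampling noise. The labels do not say more on the independence of samples than that each is an animal's blood, so the p-values measure the spread between these samples. Intervals and limits cover counting error only.

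All 9 members are named, with each gene of the pathway lists called in any comparison, the 3 with the lowest p in each comparison of HT with NT, and the 3 genes with the highest Pearson r to each member but PPARA, which did not pass the filter on low counts. A gene of the lists that is counted but not named is not reported here. The members and lists were chosen with earlier results of these data known. Alternatives were DESeq2 1.42.0, other scalings, no filter, haemoglobin genes left out, sex as a covariate, other animals in the fit, the replicate number as a block and leaving out animals in turn. The scripts were tested on simulated data. Figures were drawn with matplotlib 3.10.9.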

Additional observations from a re-analysis of the deposited data

Results flagged for a closer look

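ACADL in NT replicate 4 at ZT07 (52.16 CPM) stood far from the other 3 animals of its group (8.33 to 14.8 CPM). It was the only value to do so among 81 gene and group combinations of the 9 members, a smaller share than the 1 in 20 that chance gives. The same animal also stood apart in the 3 genes most like ACADL. It had 57.5 CPM of LAP3 (the others 8.72 to 16.3), 42.9 CPM of FBH1 (6.81 to 11.2) and 70.6 CPM of LONP2 (12.5 to 20.8).

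In the pathway genes ACADSB and TXNIP the HT minus NT difference passed the test of variation with time point. It was -0.07, -0.86, -1.27 and 0.14 for ACADSB at ZT01, ZT04, ZT07 and ZT16 (adjusted p = 0.0445). For TXNIP it was 0.31, 0.77, 0.75 and -0.16 (adjusted p = 0.0498). The HT and NT animals of ZT16 were of opposite sex, and with sex as a covariate neither passed. The part of sex in these differences was not tested apart from that. With no filter on low counts neither passed. Of 36 fits that left out 1 animal, ACADSB was called in 13 and TXNIP in 6.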

How the results depend on the processing

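The call of UCP2 at ZT07 held under DESeq2, the other scalings, no filter, sex, more animals in the fit and the block. It also held in each fit without 1 animal. The call of ACADL in Control animals held under the same settings except sex, which was not fitted, as Control animals have no sex label. That call also held in 5 fits that each left out 1 Control animal, and no NT animal was left out. For single genes 885 values kept their side of the threshold, 65 lost a call, 1 gained a call and 13, none of them called, changed sign, not counting fits without 1 animal. Under DESeq2 12 genes were called at ZT01, 487 at ZT04 (7 of the pathway) and 100 at ZT16 (1 member, UCP2, and 2 of the pathway). It called 457 for variation of the difference with time point (9 of the pathway) and 6 over NT time points. With all 41 animals in the fit the counts were 3 at ZT01, 675 at ZT04 (7 of the pathway), 0 at ZT16, 217 for variation with time point (5 of the pathway), 0 members over HT time points and 1 gene over NT time points. With sex as a covariate they were 1 at ZT04, 65 for variation with time point (0 of the pathway) and 0 members over HT time points, and with the 36 animals and sex 3 at ZT01 and 472 at ZT04 (6 of the pathway). With no filter 78 genes, 0 of the pathway, varied with time point. Sex could not be fitted at ZT16 alone. Without HT ZT07 replicates 1 and 2, chosen after seeing the data, 37 genes, 0 members and 0 pathway genes were called at ZT07. Also chosen after seeing the data were the comparison of Control with HT animals and the other scales of UCP2.

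Same-numbered HT and NT animals did not all deviate together (correlations of -0.199 to 0.267 over 17 pairs). Low correlations cannot exclude a pairing, so this check does not decide whether the numbers pair the animals. With the number as a replicate block, 2 genes were called at ZT01, 13 at ZT04 and 1 pathway gene for variation with time point, and the count of members called was the same in all 8 comparisons. At ZT01, ZT04, ZT07 and ZT16 2 of 5, 3 of 4, 2 of 4 and 1 of 4 animals went best with their own number.

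Signs of members that were not called turned as follows. With sex, CPT1A and HADHA were -0.103 and -0.0403 at ZT01 and HADHA 0.00279 at ZT04. With the block, CPT1A and HADHA were -0.0536 and -0.0239 at ZT01, CPT2 -0.0035 at ZT07 and CPT1A 0.0265 at ZT16. ACADVL at ZT04 was 0.000449 with no filter and 0.00672 with all 41 animals. Without HT ZT07 replicates 1 and 2, ACADVL and HADHA were 0.045 and -0.0992. ACADL at ZT16 was 0.0349 with the 36 animals and sex, and CPT2 was 0.365 in Control against HT animals.

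Leaving out animals in turn, the counts ran from 2 to 34 at ZT04, from 411 to 968 at ZT07 (9 to 18 of the pathway), from 2 to 4 at ZT16 and from 56 to 157 for variation with time point (0 to 3 of the pathway). There were 0 to 1 members over HT time points and 0 to 1 genes over NT time points. Members not called crossed 0. At ZT01 CPT1A ran from -0.12 to 0.16, HADHA from -0.0147 to 0.0905 and UCP2 from -0.38 to 0.0133. At ZT04 ACADVL ran from -0.17 to 0.22, ACADL from -0.40 to 0.20 and UCP2 from -0.51 to 0.046. At ZT07 CPT2 ran from -0.20 to 0.24, ACADVL from -0.21 to 0.000476, ACADL from -0.71 to 0.47 and HADHA from -0.0565 to 0.0686. At ZT16 CPT1A ran from -0.16 to 0.24, CPT2 from -0.30 to 0.024, ACADVL from -0.00223 to 0.17, ACADL from -0.38 to 0.0545 and HADHB from -0.18 to 0.00699. In Control animals ACADM ran from -0.30 to 0.0184 and ACADVL from -0.0301 to 0.0944. PPARA was limited by depth.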
